A study of Mus musculus with 18 samples.

Results

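This account follows 32 genes whose transcripts mark cells of the blood vessel wall and of the ventricle lining, in libraries made from sorted microglia and astrocytes. They are the listed endothelial genes (12), mural or fibroblast genes (12) and ependymal or choroid plexus genes (8) that are present in both raw count tables, out of 24421 gene symbols. The list was drawn from general knowledge of brain cell types, with earlier results of these data known. RNA was counted in 18 bulk libraries from 9 mice, 1 library of sorted microglia and 1 of sorted astrocytes per mouse, taken from whole brains of heparin-perfused C57BL/6j animals. The 4 WT mice (replicate 1 female, replicates 2 to 4 male) were compared with 5 mice of the APP-NLGF genotype (replicate 1 male, replicates 2 to 5 female), called APP here, which carry a humanised and mutated amyloid precursor knocked into the mouse App gene. No mouse was treated, all 18 library names carry C3WT, and the sources used here give neither ages, the antibodies of the sort, nor any Cre or floxed alleles. Each library of a group came from a separate mouse, and the mouse number in the library names links its microglia and astrocyte library.

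Brain capillaries are tubes of endothelial cells sealed by tight junctions, which form the blood-brain barrier and carry transporters for nutrients and drugs. Pericytes and smooth muscle cells, together the mural cells, wrap these tubes, fibroblasts lie around larger vessels and in the meninges, and astrocyte endfeet cover the vessel wall. Ciliated ependymal cells line the ventricles, and the choroid plexus epithelium secretes cerebrospinal fluid. Bulk libraries do not show which cell a transcript came from, and in them fewer cells of a type and less RNA per cell cannot be told apart.

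Among the 32 genes, Flt1 and Cspg4 were the 2 whose microglial APP libraries all lay above all WT libraries. Over the 13116 genes tested in microglia 19.8% did so. The promoters of Flt1 and Cspg4 are printed because of this lack of overlap, with that of the endothelial gene Cldn5 beside them. In the GENCODE M21 annotation of the authors' build mm10, Flt1 spans chr5:147561604-147726011 on the minus strand, Cspg4 chr9:56865033-56899870 on the plus strand and Cldn5 chr16:18776847-18778262 on the plus strand. Each runs from 250 bases before to 50 bases after the gene's RefSeq start, 5′ to 3′ on the gene's strand, in build GRCm38.p6. The capitals mark AGGAAG, which holds the core bound by ETS family factors. The Flt1 stretch is chr5:147725962-147726261 (minus strand), the Cspg4 stretch is chr9:56864854-56865153 (plus strand) and the Cldn5 stretch is chr16:18776597-18776896 (plus strand).
Flt1: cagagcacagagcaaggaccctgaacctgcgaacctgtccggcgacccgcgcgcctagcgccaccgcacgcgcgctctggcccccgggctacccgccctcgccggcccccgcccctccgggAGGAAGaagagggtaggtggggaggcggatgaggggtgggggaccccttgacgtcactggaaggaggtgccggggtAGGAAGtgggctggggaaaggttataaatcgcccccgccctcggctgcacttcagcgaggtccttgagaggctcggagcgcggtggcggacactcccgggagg
Cspg4: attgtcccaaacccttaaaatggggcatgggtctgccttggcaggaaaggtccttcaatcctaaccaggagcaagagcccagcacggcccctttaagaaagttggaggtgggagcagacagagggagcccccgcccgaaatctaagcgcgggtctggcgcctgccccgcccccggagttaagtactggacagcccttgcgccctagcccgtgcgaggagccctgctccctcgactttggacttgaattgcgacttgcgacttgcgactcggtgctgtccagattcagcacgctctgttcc
Cldn5: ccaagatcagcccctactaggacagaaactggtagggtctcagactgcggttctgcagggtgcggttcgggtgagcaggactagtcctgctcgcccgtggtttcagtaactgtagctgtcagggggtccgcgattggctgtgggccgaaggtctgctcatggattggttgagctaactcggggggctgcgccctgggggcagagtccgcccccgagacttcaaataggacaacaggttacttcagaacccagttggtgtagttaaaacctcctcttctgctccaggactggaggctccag
The Flt1 promoter held AGGAAG at bases 122 to 127 and again at bases 198 to 203, while the Cspg4 and Cldn5 windows held no match on either strand. RefSeq promoters matched 17 of the 32 genes by symbol, and 8 of these 17 held AGGAAG on either strand (Flt1, Tie1, Slco1a4, Ly6c1, Abcb1a, Kl, Tmem212 and Ccdc153), against 35.4% of 32851 promoters of the same length. TGANTCA, the AP-1 motif, was in 0 of the 17 (7.81% of all promoters), and CACGTG, an E-box, was also in 0 of the 17 (7.15%). These matches describe letters only.

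Microglia libraries held 8834866 to 11700620 counts (WT) and 11858295 to 18363154 counts (APP), and astrocyte libraries 10569776 to 21865752 (WT) and 18125387 to 22522407 (APP). Levels are CPM, counts scaled to a common library total after TMM adjustment. Sorted cells carried their own markers: 10 microglial markers summed to 33495 to 43248 CPM in WT and 28252 to 33106 CPM in APP microglia, and 10 astrocyte markers to 37102 to 53047 CPM in WT and 27546 to 32647 CPM in APP astrocytes. With edgeR 1 of the microglial markers rose and 5 fell in APP microglia, and 8 of the astrocyte markers fell and 0 rose in APP astrocytes (median log2 fold change -0.73). Of all genes tested 19.1% rose and 19.2% fell in microglia, and 12.1% rose and 13.5% fell in astrocytes. WT replicates 1 and 4 held the most of the astrocyte list, 53047 and 50829 CPM against 38589 and 37102 CPM in WT replicates 2 and 3. The part of these markers in the results on the members was not tested. In microglia the astrocyte list summed to 839 to 2122 CPM in WT and 713 to 2084 CPM in APP, and its 10 genes gave 0 calls (edgeR). Of the members, 32 passed the filter on low counts in astrocytes and 28 in microglia, where Tie1, Tmem212, Ccdc153 and Rarres2 did not. WT replicates 1 and 4 stood apart from WT replicates 2 and 3. They were the lower pair among the WT libraries for 27 of 28 members in microglia (19.7% of all genes) and for 27 of 32 in astrocytes (31.7% of all genes). The same 2 WT mice were lowest in both cell types for 25 of 28 members, against 21.3% of 12598 genes, the exceptions being Clic6, Ly6a and Pdgfrb. WT replicate 1 is also the only WT female, so results are given with and without it. Without it the fit with sex as a covariate rests on 3 WT males and the lone APP male. Without APP replicate 1, the only APP male, the genotype effect in such a fit rests on WT replicate 1, the lone WT female.

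All 32 members were higher in astrocytes than in microglia, and each was so in 9 of 9 mice. In the edgeR fit over 18 libraries 44.7% of 15550 genes were called higher in astrocytes and 42.7% higher in microglia. The log2 difference ran from 1.41 (SE 0.42, adjusted p = 0.00524) for Ttr, the thyroid hormone carrier secreted by the choroid plexus, to 7.20 (SE 0.50, adjusted p = 8.73e-10) for Slco1a4, an organic anion transporter of brain endothelium. By kind of cell the median log2 differences were 6.06 for the 12 endothelial genes, 4.05 for 5 pericyte genes, 2.49 for 3 smooth muscle genes, 4.07 for 4 fibroblast genes, 5.45 for 4 ependymal genes and 2.19 for 4 choroid plexus genes. With each mouse compared with itself, the microglial level of a gene was a median 0.529% to 8.47% of the astrocyte level for endothelial genes, 4.33% to 50.6% for pericyte genes and 15.5% to 16.1% for smooth muscle genes. It was 3.36% to 4.47% for fibroblast genes, 0.931% to 1.79% for ependymal genes and 14.3% to 35.7% for choroid plexus genes. These medians pool WT and APP mice. The upper ends for endothelial and pericyte genes were Flt1 and Cspg4, which in WT mice were at 1.06% to 2.16% and 2.46% to 11.1%. The next highest medians of these kinds were 7.36% for Kdr and 5.41% for Rgs5. The microglial level was thus a larger share of the astrocyte level for choroid plexus and smooth muscle genes than for ependymal genes. This order is a description of medians, with no test between kinds.

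**Figure D1:**
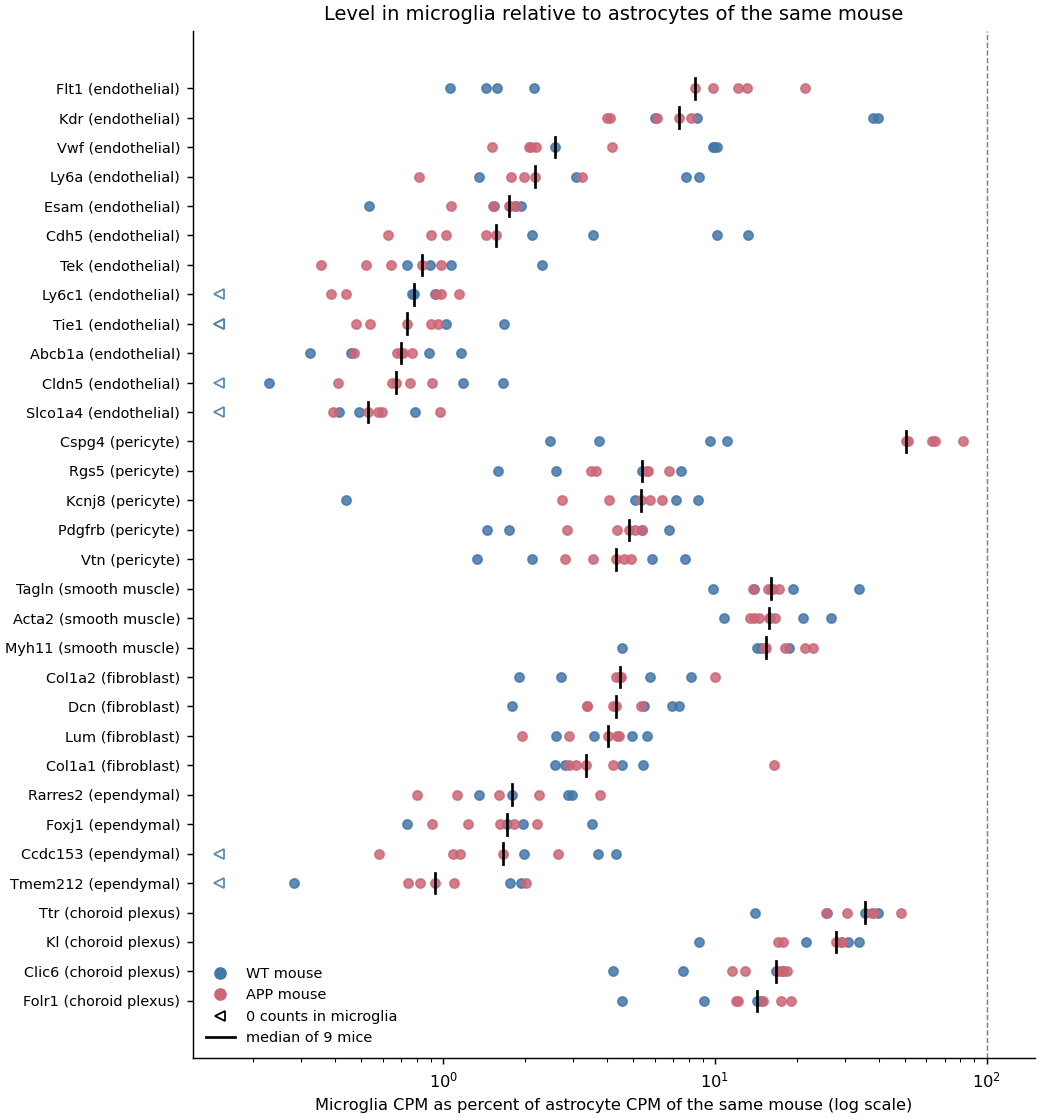
Microglial level of each of the 32 genes as a percent of the astrocyte level of the same mouse (log axis), 1 point per mouse, blue for WT and red for APP, with the median of 9 mice as a bar and open triangles at the left edge for 0 counts in microglia. All points lie below 100%, and Flt1 and Cspg4 are the genes whose red points lie wholly to the right of the blue ones: Flt1 at 8.47% to 21.4% in APP against 1.06% to 2.16% in WT, and Cspg4 at 50.6% to 81.7% against 2.46% to 11.1%. The red points of Cdh5 lie wholly to the left, at 0.625% to 1.56% in APP against 2.12% to 13.2% in WT. The share of all genes without overlap in this percent is not given.

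The summed CPM of a class shows which mice were low. In astrocytes the 12 endothelial genes summed to 565, 3608, 2835 and 482 CPM in WT replicates 1 to 4 and to 3559, 3854, 3159, 4250.2 and 2651 CPM in APP replicates 1 to 5. In the microglia of the same mice the sums were 23.8, 53.0, 72.1 and 22.9 CPM in WT and 155, 129, 131, 122 and 179 CPM in APP. WT replicates 1 and 4 were low in both libraries of the mouse, while WT replicates 2 and 3 lay within the APP range in astrocytes and below it in microglia. The mural and fibroblast sum was 1461, 2447, 2443 and 985 CPM in WT and 2814, 2762, 2707, 2995 and 3161 CPM in APP astrocytes. It was 29.2, 202, 184 and 31.3 CPM in WT and 296, 260.1, 288, 237 and 331 CPM in APP microglia. All APP sums lay above all WT sums in both cell types. In APP microglia Cspg4 alone held 44.3% of this sum, at 102 to 179 CPM against 1.88 to 17.4 CPM in WT. Each other gene of the class overlapped between the genotypes in microglia. The ependymal and choroid plexus sum was 134, 1280.3, 817 and 495 CPM in WT and 1464, 1225, 1426, 871 and 919 CPM in APP astrocytes. In microglia it was 9.74, 280.1, 195 and 96.3 CPM in WT and 355, 268, 242, 208 and 185 CPM in APP, with WT replicate 1 lowest in both cell types and WT replicates 2 and 3 within the APP range in microglia. No test was made on these sums.

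**Figure D2:**
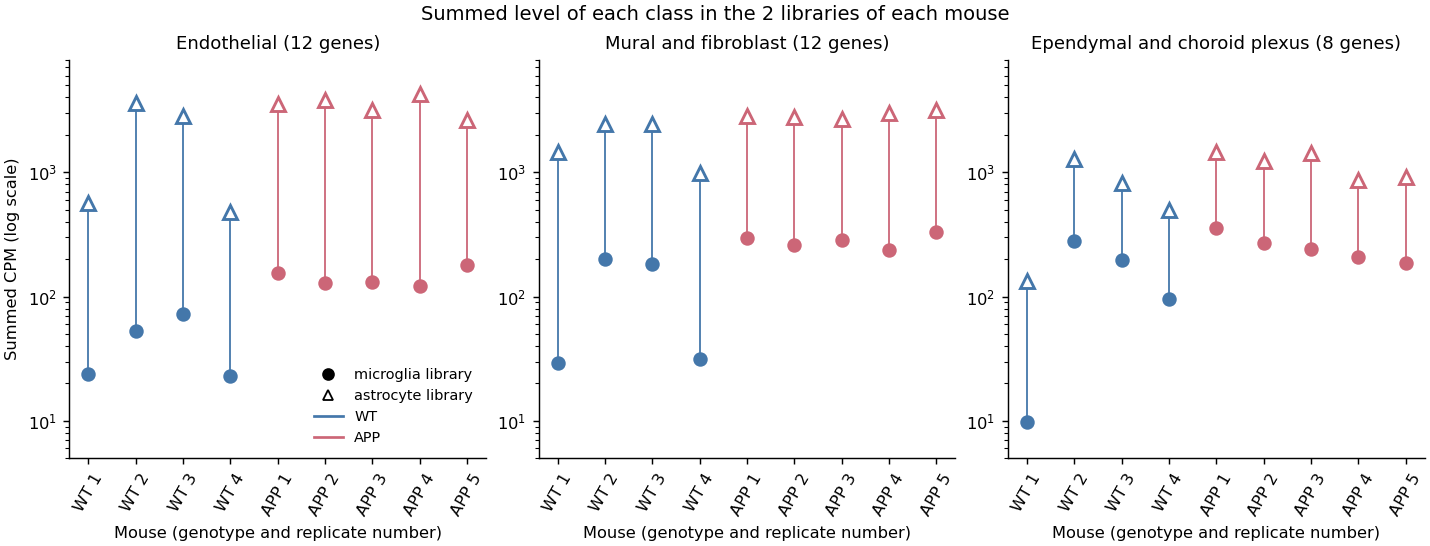
Summed CPM (log axis) of each class in the microglia library (filled circles) and astrocyte library (open triangles) of each mouse, joined by a line, blue for WT and red for APP. WT replicates 1 and 4 are low in both libraries for endothelial and mural genes, for example 565 and 482 CPM against 2835 and 3608 CPM of endothelial transcripts in WT astrocytes, and WT replicate 1 is lowest for the ependymal and choroid plexus genes.

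Endothelial transcripts were abundant in the astrocyte libraries and varied together between mice, with WT replicates 1 and 4 the lowest 2 of 9 for all 12 genes. Flt1, a receptor for vascular endothelial growth factor (VEGF), was at 128, 922, 715 and 112 CPM in WT replicates 1 to 4 and at 853, 946, 756, 1084 and 672 CPM in APP replicates 1 to 5. Cldn5, a tight junction claudin of the barrier, was at 94.5, 449, 386 and 78.4 CPM in WT and 531, 493, 399, 570.4 and 345 CPM in APP. Slco1a4 was at 77.9, 543, 399.5 and 64.5 CPM in WT and 482, 533, 436, 558 and 346 CPM in APP. For each of these genes 2 WT libraries were several-fold below the rest, and the groups overlapped. The highest WT library was 5.73 to 9.90 times the lowest over the 12 genes (median 7.82), and the highest APP library 1.50 to 1.92 times the lowest. Per kilobase of annotated exon Cldn5 was highest in astrocytes (mean 263 CPM per kb over 9 libraries), and Vwf, the clotting factor carrier, lowest (9.81). None of the 12 was called between genotypes in astrocytes by edgeR (3 at an unadjusted p under 0.05: Cldn5, Vwf and Cdh5, which were the 3 that DESeq2 called), while 12.1% of 14957 genes were called higher and 13.5% lower. Cdh5 was called without WT replicate 2. Their log2 fold changes were 1.31 to 2.11, and with WT replicates 1 and 4 left out Flt1 was at 0.05 (SE 0.28) and Kdr, the main signalling receptor for VEGF, at 0.03 (SE 0.27).

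In APP microglia 1 gene, Flt1, made up most of the endothelial sum. Flt1 was at 1.84, 9.73, 11.2 and 2.41 CPM in WT replicates 1 to 4 and at 112, 93.4, 91.8, 91.8 and 144 CPM in APP replicates 1 to 5. The groups did not overlap, with 7756 reads in the 5 APP libraries and 269 in the 4 WT libraries. Flt1 rose in APP microglia by 4.39 on the log2 scale (SE 0.43, edgeR adjusted p = 1.21e-05), by 3.86 (adjusted p = 0.000167) without WT replicate 1 and by 5.83 without APP replicate 1, the lowest and highest values with 1 mouse left out. The value without APP replicate 1 rests on WT replicate 1, the lone WT female and the lowest WT library for Flt1. The main edgeR fit used all libraries, the filter on low counts and sex as a covariate, with no block. There Flt1 was the only 1 of 11 tested endothelial genes called, where 19.1% of 13116 genes were called higher and 19.2% lower. Flt1 made up 74.4% of the summed endothelial CPM in APP microglia against 14.7% in WT, where Kdr held 34.02%.

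The other endothelial genes were not called in microglia by the main edgeR fit. DESeq2, the deposited log2 values and edgeR with the replicate block each called Slco1a4 and Ly6c1 higher. The deposited log2 values also called Cldn5 higher, and the edgeR fit without the sex covariate called Cdh5 lower (-0.85, adjusted p = 0.0313). Slco1a4 was also called by edgeR with no filter, by limma voom, and without WT replicate 2 or 3 or APP replicate 1. Kdr was at 13.3, 15.4, 17.1 and 12.7 CPM in WT microglia and 14.3, 11.0, 15.8, 12.4 and 16.1 CPM in APP microglia, and its log2 fold change was -0.01 (SE 0.17). Its groups overlapped, and its WT range was narrow, the highest library being 1.35 times the lowest. Cldn5 was at 0, 5.31, 6.38 and 0.179 CPM in WT and 4.01, 3.19, 3.62, 2.35 and 2.31 CPM in APP (log2 fold change 1.27, SE 1.07), its low WT libraries being replicates 1 and 4. Vwf was at 1.95, 4.91, 15.0 and 2.41 CPM in WT and 4.85, 5.05, 4.55, 3.26 and 5.80 CPM in APP (0.23, SE 0.65), with WT replicate 3 above every APP library. Of the adhesion genes, Cdh5, the cadherin of endothelial junctions, gave -0.64 (SE 0.34, adjusted p = 0.158) and Esam 1.06 (SE 0.70). The angiopoietin receptor Tek gave 0.46 (SE 0.88), and its relative Tie1 was not tested, with 28 reads in all WT and 54 in all APP libraries. The transporters Slco1a4 and Abcb1a, a drug efflux pump, gave 2.04 (SE 0.80, adjusted p = 0.0638) and 1.16 (SE 0.82). The surface proteins Ly6c1 and Ly6a gave 1.69 (SE 0.84) and 0.55 (SE 0.36). In WT replicate 1 Cldn5, Slco1a4, Ly6c1 and Tie1 had 0 counts, which allows up to 0.325 CPM (3 counts), and Tie1 also had 0 counts in WT replicate 4, which allows up to 0.268 CPM.

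Ratios of reads within a library, which need no scaling between libraries, separate the genotypes for Flt1 in microglia. Flt1 had 3.34 to 3.83 reads per read of Kdr in WT astrocytes and 3.08 to 3.90 in APP astrocytes. In microglia it had 0.138 to 0.658 per read of Kdr in WT and 5.82 to 8.93 in APP. Against Cldn5 the ratio was 1.35 to 2.05 in WT and 1.61 to 1.95 in APP astrocytes, but 25.4 to 62.3 in APP microglia. In WT microglia it was 1.76 to 13.5 in the 3 libraries with a Cldn5 read. The astrocyte ratios were thus close to each other in all mice, and the microglial ratios lay below them in WT for Kdr and above them in APP.

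**Figure D3:**
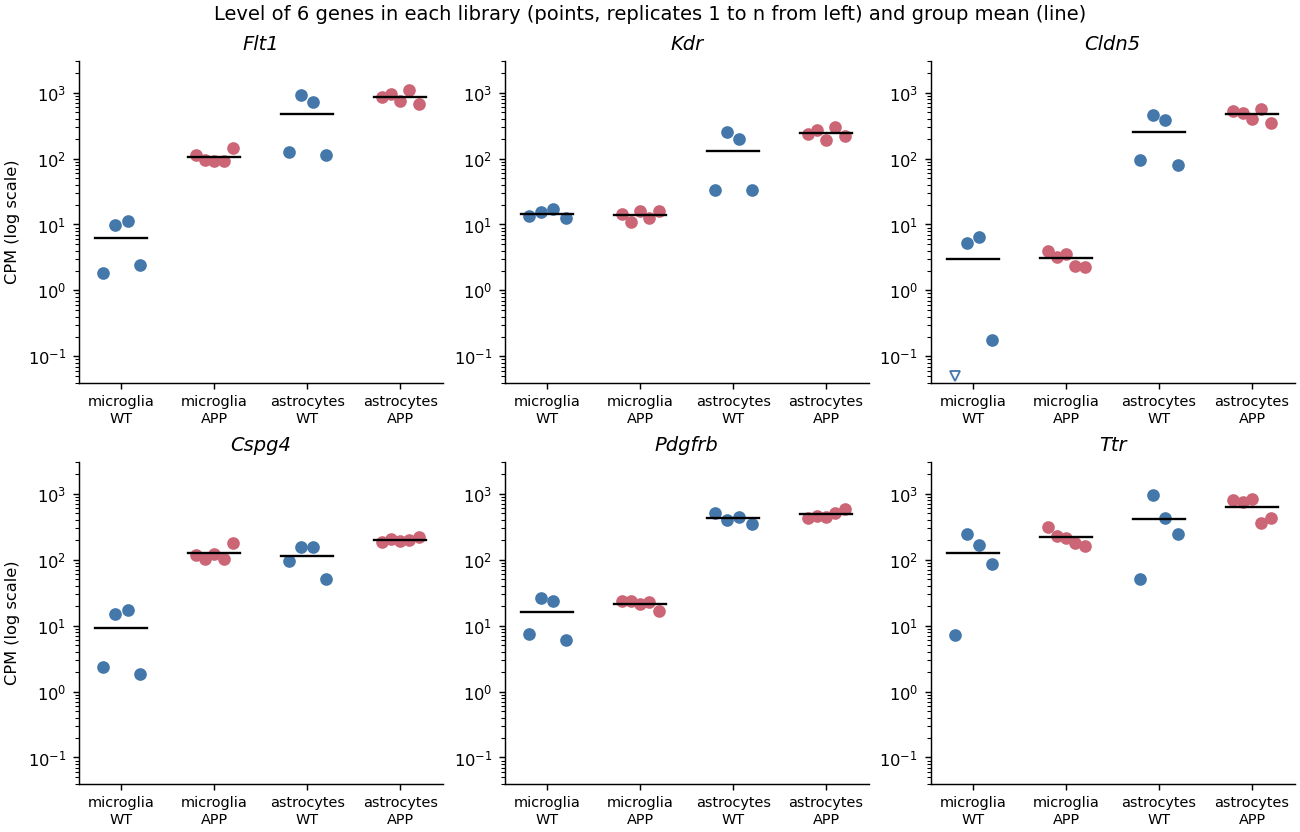
CPM (log axis) of Flt1, Kdr, Cldn5, Cspg4, Pdgfrb and Ttr in each library (points, replicates 1 to n from left, blue WT, red APP) with the group mean as a line and an open triangle for 0 counts. APP microglia lie above WT microglia without overlap for Flt1 (91.8 to 144 against 1.84 to 11.2 CPM) and Cspg4 (102 to 179 against 1.88 to 17.4 CPM), while Kdr, Cldn5, Pdgfrb and Ttr overlap.

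Among mural genes Cspg4, which encodes the NG2 proteoglycan of pericytes and oligodendrocyte precursors, also stood apart in microglia. It was at 2.38, 14.8, 17.4 and 1.88 CPM in WT replicates 1 to 4 and at 119, 104, 122, 102 and 179 CPM in APP replicates 1 to 5, from 388 and 9220 reads. The groups did not overlap, and APP replicate 5 was the highest. Cspg4 rose by 4.09 (SE 0.57, adjusted p = 0.000165), by 3.40 (adjusted p = 0.00214) without WT replicate 1 and by 5.73 without APP replicate 1. The value without APP replicate 1 again rests on WT replicate 1 as the lone WT female. In APP microglia Cspg4 held 44.3% of the summed mural and fibroblast CPM. Its level there was 64.7, 51.5, 63.0, 50.6 and 81.7 percent of the astrocyte level of the same mouse in APP replicates 1 to 5, against 2.46, 9.63, 11.1 and 3.74 percent in WT replicates 1 to 4. In astrocytes Cspg4 was at 96.7, 154, 157 and 50.1 CPM in WT and 183, 202, 194, 202 and 219 CPM in APP. There too the APP libraries did not overlap the WT libraries, but the fold change of 0.85 (SE 0.36) was not called (adjusted p = 0.108).

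The other pericyte genes gave smaller microglial differences with overlapping groups. Vtn, the matrix protein vitronectin, was at 6.71, 54.5, 42.0 and 5.18 CPM in WT and 36.6, 38.8, 44.7, 34.3 and 31.7 CPM in APP microglia (log2 fold change 1.10, SE 0.72). Pdgfrb, the receptor for platelet-derived growth factor, was at 7.36, 26.6, 23.8 and 5.98 CPM in WT and 23.4, 23.6, 21.5, 22.48 and 16.6 CPM in APP (0.85, SE 0.45). Both were lowest in WT replicates 1 and 4, and WT replicates 2 and 3 were not below the APP range. Rgs5, a regulator of G protein signalling, gave 1.49 (SE 0.75), and Kcnj8, a potassium channel subunit, gave 1.12 (SE 0.75). Rgs5 was called without WT replicate 2 and Kcnj8 without APP replicate 1, and both with the deposited log2 values. In microglia the reads of Cspg4 per read of Pdgfrb were 0.313 to 0.732 (WT) and 4.39 to 10.8 (APP), against 0.147 to 0.434 over all astrocyte libraries. Per read of Rgs5 they were 0.477 to 1.10 in WT and 4.33 to 11.2 in APP microglia.

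In astrocytes Vtn was at 506, 701, 714 and 244 CPM in WT and 846, 838, 907, 965 and 1125 CPM in APP, with all APP libraries above all WT libraries (log2 fold change 0.77, SE 0.35, adjusted p = 0.123). Pdgfrb was at 507, 392, 441 and 342 CPM in WT and 434, 465, 447, 517 and 583 CPM in APP (0.06, SE 0.13). Its WT libraries differed by at most 1.48 times, the least of the 12 mural and fibroblast genes, and replicate 1 was the highest of them. Rgs5 was at 136, 415, 382 and 72.1 CPM in WT and 404, 396, 316, 537 and 453 CPM in APP (1.07, SE 0.60), again low in WT replicates 1 and 4. Kcnj8 gave 0.64 (SE 0.42). None of the 5 pericyte genes was called in astrocytes by edgeR with all libraries (1 at an unadjusted p under 0.05), beside 12.1% of all genes called higher and 13.5% lower. DESeq2 called Cspg4, and without WT replicate 4 edgeR called Vtn and Cspg4.

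The smooth muscle genes Acta2, Tagln and Myh11, which encode contractile proteins, were not called by the main edgeR fit in either cell type. In microglia DESeq2, the deposited log2 values and edgeR with the replicate block each called all 3 higher. There edgeR with no filter called Acta2 and Tagln higher. Acta2 and Tagln were also called there without WT replicate 2 or 3, and Acta2 and Myh11 without APP replicate 1. Acta2 was at 3.79, 26.1, 29.4 and 5.72 CPM in WT and 30.8, 23.1, 27.7, 20.8 and 18.6 CPM in APP microglia (log2 fold change 1.36, SE 0.55, adjusted p = 0.0714). Tagln gave 1.22 (SE 0.48, adjusted p = 0.0664) and Myh11 1.95 (SE 0.87, adjusted p = 0.100), and in astrocytes the 3 genes gave 1.69 to 1.79. Of the mural and fibroblast genes Myh11 varied most among WT mice, 45.9 times between highest and lowest in microglia and 14.1 times in astrocytes. Tagln overlaps Pcsk7 on the other strand, and since the use of strand is not given its reads are uncertain.

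All 4 fibroblast genes were called higher in astrocytes, beside 12.1% of all genes called higher and 13.5% lower. Col1a1 and Col1a2, the chains of type I collagen, rose by 1.33 (SE 0.22, adjusted p = 0.00686) and 1.11 (SE 0.17, adjusted p = 0.00586). Col1a1 was at 41.8, 76.8, 94.7 and 66.7 CPM in WT and 149, 150.4, 113, 136 and 155 CPM in APP astrocytes. Col1a2 was at 67.7, 128, 137 and 108 CPM in WT and 207, 195, 168, 207 and 179.7 CPM in APP. For both, every APP library lay above every WT library. Dcn and Lum, small proteoglycans that bind collagen, rose by 1.22 (SE 0.33, adjusted p = 0.0272) and 1.14 (SE 0.36, adjusted p = 0.0485). Dcn was at 30.2, 73.0, 77.2 and 30.7 CPM in WT and 108, 97.5, 81.7, 94.1 and 94.1 CPM in APP, without overlap. Lum was at 16.6, 38.7, 43.7 and 19.9 CPM in WT and 56.4, 55.1, 34.6, 39.2 and 66.6 CPM in APP, where the groups overlapped. None of the 4 was called without WT replicate 1: Col1a1 was then at 0.89 (adjusted p = 0.134), Col1a2 at 0.72 (adjusted p = 0.122), Dcn at 0.82 (adjusted p = 0.303) and Lum at 0.70 (adjusted p = 0.420). Lum also lost its call without WT replicate 4 or without any 1 of the APP replicates. Without the sex covariate Col1a1 and Col1a2 were called and Dcn and Lum were not. Col1a2 overlaps Gm43921 on its own strand.

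In microglia Dcn was the only fibroblast gene called by the main edgeR fit, beside 19.1% of all genes called higher and 19.2% lower. Dcn was at 0.541, 5.39, 4.22 and 2.14 CPM in WT and 5.77, 4.199, 3.44, 3.18 and 3.19 CPM in APP. Its groups overlapped, and it rose by 1.27 (SE 0.46, adjusted p = 0.0484) with sex in the fit but gave 0.55 (adjusted p = 0.431) without WT replicate 1. The call was also lost without the sex covariate (0.34, adjusted p = 0.565) and without WT replicate 3 or 4 or any 1 of APP replicates 2 to 5. Col1a1 (1.75, SE 0.88), Col1a2 (1.302, SE 0.62) and Lum (1.01, SE 0.52) were not called by the main edgeR fit. Col1a1 was called by edgeR with the replicate block and without APP replicate 5. Col1a2 was called with the deposited log2 values and by edgeR without WT replicate 2. In APP replicate 5 Col1a1 reached 25.7 CPM against 3.50 to 6.27 CPM in the other 4 APP microglia libraries, and Col1a2 17.9 CPM against 7.30 to 9.36 CPM.

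All 4 ependymal genes and 2 of 4 choroid plexus genes rose in APP astrocytes, beside 12.1% of all genes. Of these 6, Ccdc153 and Rarres2 were called without the sex covariate. Foxj1, the master regulator of motile cilia, was at 25.3, 123, 198 and 121 CPM in WT and 305, 182, 272, 260.4 and 253 CPM in APP and rose by 2.15 (SE 0.50, adjusted p = 0.0181). Tmem212, a gene of ciliated cells, was at 6.70, 22.9, 50.5 and 31.7 CPM in WT and 76.5, 46.2, 75.3, 61.3 and 57.5 CPM in APP (2.09, SE 0.50, adjusted p = 0.0192). Ccdc153, a gene of motile cilia, was at 3.38, 12.99, 26.3 and 13.5 CPM in WT and 43.0, 29.4, 45.9, 34.8 and 35.9 CPM in APP (2.25, SE 0.50, adjusted p = 0.0161). For Ccdc153 no APP library was as low as any WT library, while for Foxj1 and Tmem212 APP replicate 2 lay below WT replicate 3. Rarres2, which encodes the chemoattractant chemerin, was at 10.9, 17.96, 33.7 and 26.3 CPM in WT and 52.2, 32.9, 46.7, 42.5 and 42.0 CPM in APP (1.45, SE 0.28, adjusted p = 0.0107). WT replicate 1 was the lowest of the 9 for all 4 genes, and without it they gave 0.99 to 1.26 with adjusted p of 0.160 to 0.197. Tmem212 and Rarres2 overlap Gm26040 and Lrrc61 on the other strand.

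Of the choroid plexus genes, Folr1, the folate receptor, rose in astrocytes by 1.74 (SE 0.47, adjusted p = 0.0278) and Clic6, an intracellular chloride channel protein, by 0.90 (SE 0.24, adjusted p = 0.0283). Folr1 was at 2.38, 14.2, 12.1 and 7.85 CPM in WT and 20.7, 16.7, 23.9, 13.6 and 14.2 CPM in APP. Clic6 was at 28.4, 62.7, 36.1 and 37.4 CPM in WT and 75.6, 72.7, 65.0, 46.6 and 52.6 CPM in APP. In both, WT replicate 1 was lowest and WT replicate 2 lay within the APP range. Ttr was at 50.8, 948, 426 and 241 CPM in WT and 813, 757, 825, 365 and 428 CPM in APP, and its difference of 2.08 (SE 0.89) was not called (adjusted p = 0.109). Kl, the hormone co-receptor klotho, was at 6.20, 78.5, 33.9 and 15.9 CPM in WT and 77.5, 87.3, 72.9, 46.9 and 36.0 CPM in APP (2.00, SE 0.79, adjusted p = 0.0890). Both were called by DESeq2, and by edgeR without WT replicate 2 or APP replicate 1. Without WT replicate 1 Folr1 was at 0.83 (adjusted p = 0.264) and Clic6 at 0.72 (adjusted p = 0.293), and Clic6 was also not called without APP replicate 1 or 3. Folr1 overlaps Anapc15 on the other strand and Clic6 overlaps 2410124H12Rik on its own.

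In microglia all 4 choroid plexus genes were called higher, beside 19.1% of all genes. Per kilobase of exon Ttr was the most abundant of the 8 members of the class (mean 149.8 CPM per kb over 9 libraries). Ttr was at 7.15, 244, 169 and 86.2 CPM in WT and 310.2, 232, 211, 177 and 162 CPM in APP and rose by 2.41 (SE 0.72, adjusted p = 0.0208). Kl was at 0.541, 16.97, 11.5 and 4.91 CPM in WT and 22.8, 14.9, 12.96, 13.6 and 10.1 CPM in APP (1.93, SE 0.56, adjusted p = 0.0180). Both were lowest in WT replicate 1, and their WT replicates 2 and 3 lay inside the APP range. Clic6 was at 1.19, 11.2, 6.06 and 2.86 CPM in WT and 13.4, 13.4, 7.53, 7.95 and 6.80 CPM in APP (1.65, SE 0.52, adjusted p = 0.0260). Folr1 was at 0.108, 2.09, 1.73 and 0.715 CPM in WT and 2.51, 3.19, 2.86, 2.04 and 2.48 CPM in APP (1.70, SE 0.62, adjusted p = 0.0498). Without WT replicate 1 none of the 4 was called: Ttr was then at 0.90 (adjusted p = 0.145), Kl at 1.03 (adjusted p = 0.141), Clic6 at 0.98 (adjusted p = 0.256) and Folr1 at 0.72 (adjusted p = 0.405). Folr1 also lost its call without WT replicate 3 or 4 or any 1 of APP replicates 2 to 5. Without the sex covariate none of the 4 was called either (0.78 to 1.14, adjusted p of 0.0652 to 0.300). Foxj1 was at 0.433 to 4.34 CPM in WT and 2.25 to 5.75 CPM in APP microglia (1.50, SE 0.68, edgeR adjusted p = 0.105). DESeq2 and the deposited log2 values each called Foxj1 higher there.

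Ttr made up 87.2% of the summed ependymal and choroid plexus CPM in WT microglia and 86.8% in APP microglia, against 61.1% and 54.0% in astrocytes. Per read of Foxj1 there were 54.2 reads of Ttr in WT microglia and 53.4 in APP microglia, summed over libraries, against 3.73 in WT astrocytes and 2.49 in APP astrocytes. Choroid plexus and ependymal transcripts thus stood in different proportions in the 2 sorted populations, in both genotypes. In microglia Tmem212, Ccdc153 and Rarres2 had at most 12, 13 and 18 reads in a library and were not tested there. WT replicate 1 had 0 counts of Tmem212 and of Ccdc153, which allows up to 0.325 CPM.

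Counted over all members, 7 of 28 were called higher and 0 lower in APP microglia (edgeR, 12 higher and 0 lower at an unadjusted p under 0.05), beside the 19.1% and 19.2% of all genes. Fold changes were above 0 for 26 of 28 members with a median of 1.29 on the log2 scale, where the median of all genes was 0.01. By class the calls were 1 of 11 endothelial, 2 of 12 mural or fibroblast and 4 of 5 ependymal or choroid plexus genes. Without WT replicate 1 the calls were 2 of 31, Flt1 and Cspg4, and the median was 0.60. They were 12 without WT replicate 2, and 11 with a median of 3.0015 without APP replicate 1, the only APP male. With WT replicates 1 and 4 both left out, Flt1 (3.43, adjusted p = 2.20e-05) and Cspg4 (2.89, adjusted p = 0.000129) were again the 2 called of 32, and the median was 0.18. In astrocytes 10 of 32 were called higher and 0 lower (16 and 0 at an unadjusted p under 0.05), beside 12.1% and 13.5% of all genes. All 32 fold changes were above 0 and their median was 1.58. Without WT replicate 1 the calls were 0 of 32 (7 at an unadjusted p under 0.05) with a median of 0.61, and over all genes they went from 3836 to 34. The shares of all genes called between genotypes are of adjusted calls, and none is given at the unadjusted level. The median was 2.60 without APP replicate 1, with 10 called. In both cell types the median without this mouse rests on WT replicate 1 as the lone WT female. Every APP library was above every WT library for 2 of 28 members in microglia, against 19.8% of all genes, and for 6 of 32 in astrocytes (Vtn, Cspg4, Col1a1, Col1a2, Dcn and Ccdc153), against 9.91%.

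**Figure D4:**
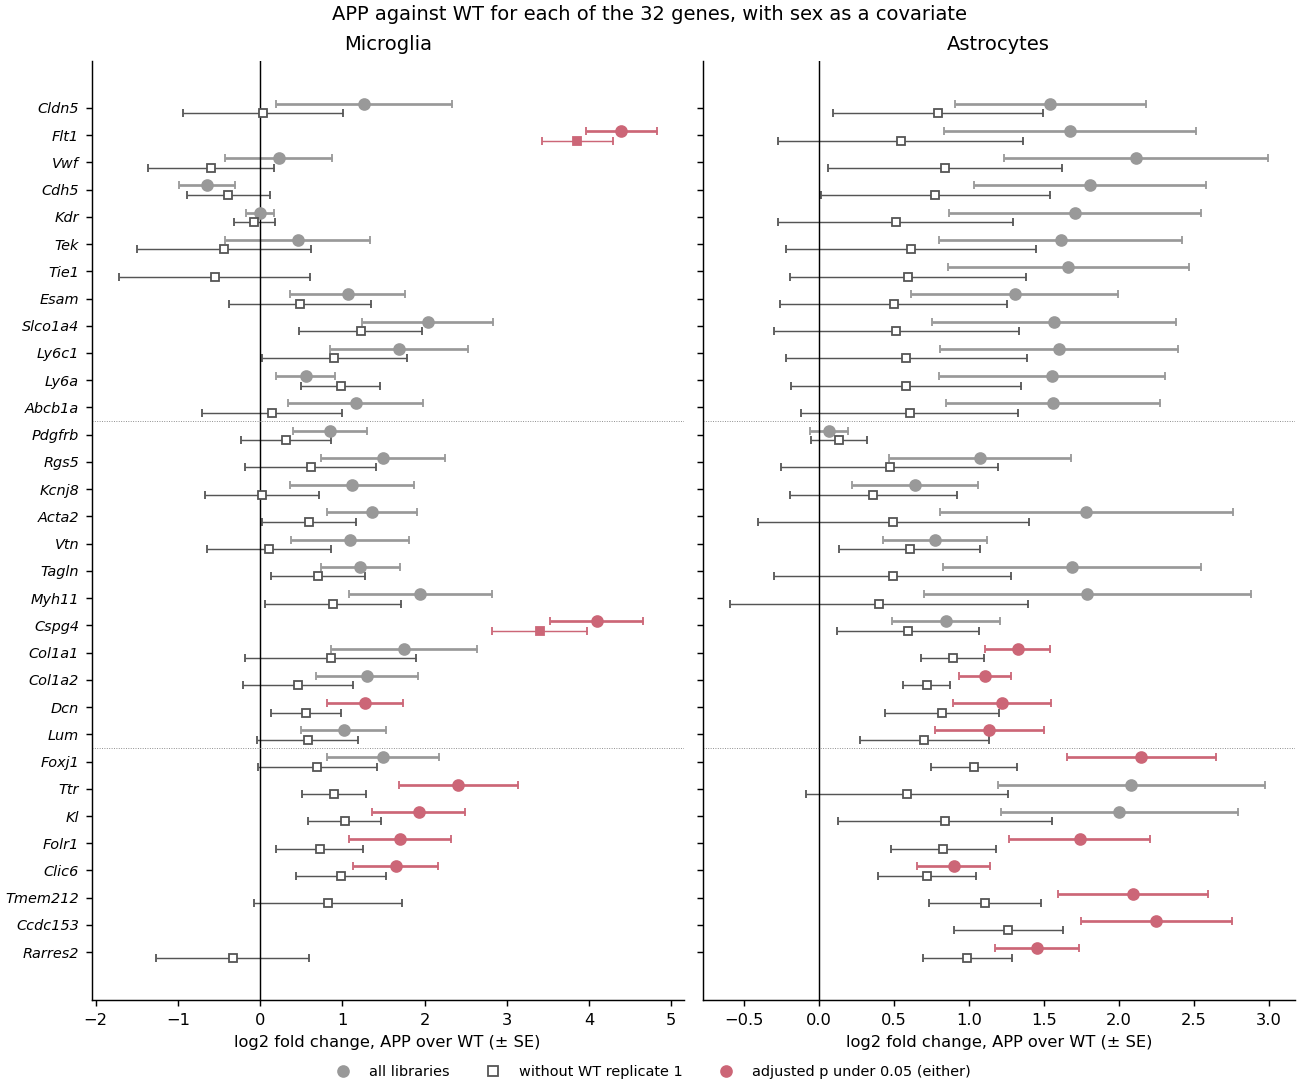
Log2 fold change of APP over WT with its SE for each gene, in microglia (left) and astrocytes (right), with all libraries (circles) and without WT replicate 1 (squares), red where the adjusted p was under 0.05. Without that mouse nearly all values move toward 0, the median going from 1.29 to 0.60 in microglia and from 1.58 to 0.61 in astrocytes, and Flt1 (3.86) and Cspg4 (3.40) in microglia are the only ones still called.

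An interaction term, microglia minus astrocytes, asked whether the response to genotype differed between the sorted populations. Cspg4 was the 1 member called, at 3.41 (SE 0.86, edgeR adjusted p = 0.00986), where 12.5% of 15550 genes were called higher in microglia and 8.91% lower. Flt1 gave 2.90 (SE 1.11) and was not called (adjusted p = 0.0764). With the mouse as a replicate block, which pairs the 2 libraries of an animal, Cspg4 was at 3.67 (adjusted p = 0.000701), Flt1 was called at 3.15 (SE 0.37, adjusted p = 0.000562), and Cdh5 was called at -2.52 (SE 0.62, adjusted p = 0.0196). Cdh5 without the block was at -2.39 (SE 0.98, adjusted p = 0.0992), with means of 4.08 and 2.26 CPM in WT and APP microglia and 103 and 207 CPM in WT and APP astrocytes. Without WT replicate 1 neither gene was called, Cspg4 at 2.77 (adjusted p = 0.162) and Flt1 at 3.28 (adjusted p = 0.149). Flt1 was called higher without WT replicate 4, and Cdh5 lower without WT replicate 2 or 4. With WT replicates 1 and 4 left out Cspg4 was at 2.61 (adjusted p = 0.00139) and Flt1 at 3.325 (adjusted p = 0.00114). No member other than Cspg4, Flt1 and Cdh5 was called in these fits. With all libraries and no block, 2 members were above and 1 below 0 at an unadjusted p under 0.05.

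The deviations of a gene from its genotype mean were also compared between the 2 libraries of each mouse, with all pairings of mice within genotype as an exact two-sided permutation test (smallest possible p 0.000347). None of 28 members passed Benjamini-Hochberg adjustment over 12598 genes (0% of all genes were called), and 11 of 28 had an unadjusted p under 0.05 against 8.66% of all genes. For Ttr, Pearson's r over 9 mice was 0.952 and Spearman's rho 0.867 (exact permutation p = 0.00278 for r and 0.00903 for rho, adjusted p = 0.437 and 0.581). Without the 2 mice farthest from the median in microglia, WT replicates 1 and 2, r was 0.764. For Kl, r was 0.920 and rho 0.917 (exact permutation p = 0.00451 and 0.00313, adjusted p = 0.468 and 0.554), and r was 0.714 without the same 2 mice. Folr1 (r 0.952), Clic6 (r 0.841) and Foxj1 (r 0.776) also had an unadjusted exact permutation p under 0.05. Of the other members, 6 of 12 mural or fibroblast genes (Acta2, Tagln, Myh11, Cspg4, Col1a1 and Dcn) and 0 of 11 endothelial genes had an unadjusted exact permutation p under 0.05. The summed endothelial and mural levels of WT replicates 1 and 4 lay apart from those of the other mice, so no pooled coefficient is printed for these 2 classes, although single genes such as Kdr, Ly6a and Cdh5 in microglia did not show that gap.

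Further marker genes of each kind were read from lists that do not include the 32. In astrocytes, where edgeR called 12.1% of all genes higher and 13.5% lower, 19 of 21 tested ependymal genes rose and 0 fell, among them Pifo (1.81, SE 0.29, adjusted p = 0.00634) and Tekt1 (1.52, SE 0.29, adjusted p = 0.0103), which belong to motile cilia. Of 17 fibroblast genes 12 rose and 0 fell, among them Col6a3, a collagen chain (1.52, adjusted p = 0.00937), and Lama1, a laminin chain (1.48, adjusted p = 0.0110). Of 16 choroid plexus genes 6 rose and 0 fell, among them the transcription factor Otx2 (0.80, adjusted p = 0.0136) and the claudin Cldn2 (1.70, adjusted p = 0.0163). Of 32 endothelial genes 1 rose (Pltp, a phospholipid transfer protein, 1.46, adjusted p = 0.0429), 1 fell (Mfsd2a, a lipid transporter of the barrier, -0.46, adjusted p = 0.0334), and 1 of 22 mural genes rose (Tbx18, 1.45, adjusted p = 0.0313). DESeq2 called 14 of the endothelial, 4 of the mural and 15 of the choroid plexus genes higher. The median fold changes of these lists were 1.80 for ependymal, 1.55 for fibroblast, 1.77 for choroid plexus, 1.57 for endothelial and 0.78 for mural genes. None of the genes on the 5 lists was called in astrocytes without WT replicate 1, when 15 ependymal, 11 fibroblast, 6 choroid plexus, 0 mural and 0 endothelial genes were higher at an unadjusted p under 0.05 and 1 endothelial gene was lower. The share of all genes at that unadjusted level is not given, so these counts have no background beside them.

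In microglia, where 19.1% of all genes were called higher and 19.2% lower, the same lists gave mixed calls. Of 19 endothelial genes 3 rose and 2 fell: Cd34, a sialomucin, went from 222 to 663 CPM (1.48, SE 0.11, adjusted p = 1.91e-06), the glucose transporter Slc2a1 from 74.5 to 227 CPM (1.39, SE 0.17, adjusted p = 7.48e-05), and Eng, a co-receptor for transforming growth factor beta, from 144 to 73.7 CPM (-0.87, SE 0.09, adjusted p = 2.58e-05). Of 19 mural genes 3 rose (Anpep, Mcam and Tpm2), and of 16 choroid plexus genes 3 rose (Enpp2, F5 and Slc4a5), with none lower in either list. Of 16 fibroblast genes Aebp1 and Islr rose, while Col6a3 fell by 2.12 on the log2 scale (SE 0.10, adjusted p = 4.18e-08), from 165 to 40.1 CPM. Of 9 ependymal genes Rfx2 and Ccdc108 (listed as Cfap65) rose, and Rfx3, a regulator of cilia genes, fell by 0.62 on the log2 scale (adjusted p = 0.000393). Col6a3 was higher in microglia than in astrocytes (log2 difference -4.02, adjusted p = 1.99e-14). Cd34 was also at lower means in astrocytes than in microglia, at 84.2 CPM (WT) and 158 CPM (APP). In astrocytes Eng averaged 122 and 225 CPM and Slc2a1 828 and 1022 CPM in WT and APP. Without WT replicate 1 the calls were 3 higher and 1 lower of 21 endothelial, 0 of 20 mural, 0 higher and 1 lower of 16 fibroblast, 0 higher and 1 lower of 10 ependymal and 0 of 16 choroid plexus genes.

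Markers of other cells were read in the same fits. Over all genes edgeR called 19.1% higher and 19.2% lower in microglia, and 12.1% higher and 13.5% lower in astrocytes. Because Cspg4 is also a gene of oligodendrocyte precursors, 10 markers of these cells were read. They summed to 10.3 to 37.3 CPM in WT and 18.8 to 42.2 CPM in APP microglia. Of 5 tested there, edgeR called 0 and DESeq2 called 2 higher. Pdgfra averaged 2.04 CPM (WT) and 3.83 CPM (APP) in microglia (1.46, SE 0.64, edgeR adjusted p = 0.0925). In astrocytes this list summed to 366 to 450 CPM in WT and 381 to 475 CPM in APP, and 3 of 8 tested rose (Tnr, Pdgfra and Sox10). The 10 oligodendrocyte markers summed to 192 to 479 CPM in WT and 366 to 779 CPM in APP microglia, where Mbp and Cldn11 were among the markers that rose, and to 653 to 791 CPM and 748 to 4090 CPM in astrocytes, where 1 of 10 rose. The 8 markers of border macrophages, which lie along vessels, summed to 1716 to 1840 CPM in WT and 348 to 625 CPM in APP microglia, and 6 of 8 fell there. In astrocytes the 10 microglial markers summed to 255 to 284 CPM in WT and 371 to 425 CPM in APP, and 8 of 10 rose and 1 fell. Neuronal markers summed to 12.1 to 36.2 CPM and 10.7 to 26.9 CPM in WT and APP microglia, and of the blood markers 4 haemoglobin genes were listed at 0 in every library. The part of these cells in the results on Flt1, Cspg4 and the other members was not tested.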

How the data were processed

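RNA of sorted microglia and astrocytes from 9 mice was sequenced in 18 bulk libraries. The submitters' processing notes name limma 3.46.0, STAR 2.7.3a, edgeR 3.32.1, FastQC 0.11.8, SAMtools 1.9 and Trimmomatic 0.39, and the build mm10. For the counting step, its annotation and its strand setting, nothing is stated by the sources used here. The raw tables, as deposited, hold whole read counts of 24421 symbols, and their names say that outliers were left out. The authors' normalized tables hold log2 values, used here only as an alternative.

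The members, further lists and tests were chosen with earlier results of these data known. Counts were fitted per cell type with edgeR 4.0.16 in R 4.3.3: filterByExpr by genotype (minimum count 10, minimum total 15), TMM, sex as a covariate, quasi-likelihood F-test, Benjamini-Hochberg adjustment over all genes, called at an adjusted p under 0.05. Cell type and interaction were fitted over 18 libraries with genotype and sex by cell type. With sex in the fit, fold changes can differ from ratios of group means. Libraries of the same mouse, paired by its number, correlated at r of 0.0691 to 0.358. Every library's value is given for called members and the 3 most abundant of each class, and further lists give up to 3 called genes by adjusted p. Alternatives were DESeq2 1.42.0, limma 3.58.1 voom, other filters and scalings, the deposited log2 values, no sex covariate, blocks and left-out libraries. The fits were tested on simulated data.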

Additional observations from a re-analysis of the deposited data

Results flagged for a closer look

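In 132 groups of 4 or 5 libraries, 4 had a library far from the others by Dixon's gap test at the 95% level, and chance flags about 1 in 20 groups. All 4 were APP replicate 5. In its astrocytes Vwf was at 138 CPM against 214 to 244 CPM in the other 4 APP libraries. In its microglia Cspg4 was at 179 CPM against 102 to 122 CPM, Col1a1 at 25.7 CPM against 3.50 to 6.27 CPM, and Col1a2 at 17.9 CPM against 7.30 to 9.36 CPM.

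The genotype response of Cspg4 differed between the cell types, by 3.41 on the log2 scale as microglia minus astrocytes (interaction, edgeR adjusted p = 0.00986, 0.000701 with the mouse as a block and 0.162 without WT replicate 1). The cause of these values was not tested.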

How the results depend on the processing

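In microglia the 7 members called higher became 13 with DESeq2, 17 with the deposited log2 values, 2 without the sex covariate (with Cdh5 then called lower), 13 with the replicate block, 2 to 12 over the left-out libraries (2 without WT replicate 1, 12 without WT replicate 2, 11 without APP replicate 1) and 2 with WT replicates 1 and 4 both left out, which left 2330 genes called of 5022. The left-out libraries gave 2641 to 5085 genes. Flt1 and Cspg4 kept their call and direction under all 17 alternatives. In astrocytes the 10 members became 16 with DESeq2, 4 without the sex covariate, 0 to 13 over the left-out libraries (34 to 4217 genes against 3836) and 0 with WT replicates 1 and 4 left out (142 genes). The replicate block, by a number that does not pair WT with APP mice (r of -0.27 to 0.12), gave 1907 genes and 10 members in astrocytes. For the interaction the 1 member called higher became 2 with the replicate block by mouse, DESeq2, no sex covariate, or WT replicates 1 and 4 left out (922 genes against 3328), and 0 to 2 over the left-out libraries (0 without WT replicate 1, 2 without WT replicate 4, and 855 to 3303 genes). Cdh5 was in addition called lower with the block by mouse, with DESeq2 and without WT replicate 2 or 4. The lowest values over left-out libraries came without WT replicate 1, when fewer samples remain and the fit rests on 1 APP male. Without APP replicate 1 the genotype effect rests on WT replicate 1, the lone WT female. The block by mouse changed the calls of Flt1 and Cdh5 and of no other member. All 32 members stayed higher in astrocytes under all 14 alternatives. The endothelial sum in microglia, 1.74 higher in APP on the log2 scale, was at -0.00039 without Flt1. The other class sums kept their direction under 12 alternatives each. In microglia Tie1, Tmem212, Ccdc153 and Rarres2 did not pass the filter on low counts, and with no filter all 32 members were tested, 10 were called and these 4 were not.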
